A study of Mus musculus with 6 samples.

Results

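Genes that build and move the mitotic spindle were examined for peaks of Ikaros, a zinc finger DNA-binding protein and the product of Ikzf1, in mouse natural killer (NK) cells. Members were the protein-coding genes that the deposited peak lists name and whose symbols begin with Cenp, Cep and a digit, Haus, Tuba, Tubb, Tubg, Mapre, Ckap, Kif and a digit, Dync, Dctn, Dnah, Ift and a digit or Anapc, plus Clasp2. This gave 28 genes of 2145 protein-coding genes that the lists name. The RefSeq gene table holds 187 protein-coding symbols that meet the name rule, and 1 more gene, Kifbp, was counted with them because the lists call it Kif1bp. The 28 members are 14.9% of these 188 genes (95% Clopper-Pearson interval 10.1 to 20.8), or 14.4% without Kifbp, and the lists name 9.51% of all 21900 protein-coding genes in that table. The series holds 6 chromatin immunoprecipitation sequencing (ChIP-seq) libraries of splenic NK cells expanded in culture with IL-15, all precipitated with an antibody to Ikaros. In 3 libraries Ikzf1 had been knocked out conditionally through NKp46 (KO), a receptor that marks NK cells, and 3 were wild type (WT). KO libraries were not analysed here, so the values below describe WT cells, and no peak was set against cells that lack Ikaros. Whether the WT libraries came from separate animals is not given in the sources used here, and peak lists carry no expression values against which the NK identity of the cells could be checked.

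The centrosome is the microtubule-organizing centre of animal cells, and its centrioles also form the base of cilia. At mitosis, microtubules grown from centrosomes attach to kinetochores, protein plates that form on centromeric chromatin containing the histone variant CENP-A. Kinesin and dynein motors then move cargo and chromosomes along these microtubules. In NK cells the centrosome also moves to the contact with a target cell, where lytic granules converge on it. Several of the families named here serve cilia rather than the spindle, namely the axonemal dyneins (Dnah) and the intraflagellar transport proteins (Ift).

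Among the 19 members with a peak in 2 or more lists, 13 had it near an annotated start (68.4%, interval 43.4 to 87.4). Of all 933 regions with a protein-coding gene in 2 or more lists, 53.4% did, a share inside that interval. The promoter windows of 6 members lay under a peak in every list, of 15 member windows under any peak. Over all protein-coding genes these numbers were 233 and 1151. Sequences of the 6 members are shown because a peak of every list overlaps their windows, though the peaks also reach beyond the bases shown. In Cep44 the bases shared by all 3 peaks ran from -351 to -240 relative to the start, so most of them are not shown. Each is the 250 bases before the transcription start, from RefSeq (GRCm38.p6), 5′ to 3′ on the strand of the gene, and capitals mark GGGAA, the core of Ikaros binding sites, or its reverse complement TTCCC. The same letters include the core of sites bound by ETS factors, GGAA.
Cenpu, chr8:46551819-46552068, + strand: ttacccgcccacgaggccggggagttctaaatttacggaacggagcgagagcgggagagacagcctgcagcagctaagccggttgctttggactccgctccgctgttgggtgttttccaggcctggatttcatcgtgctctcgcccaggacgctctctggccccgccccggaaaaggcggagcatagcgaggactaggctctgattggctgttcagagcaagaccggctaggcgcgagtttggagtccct
Cenpl, chr1:161070517-161070766, + strand: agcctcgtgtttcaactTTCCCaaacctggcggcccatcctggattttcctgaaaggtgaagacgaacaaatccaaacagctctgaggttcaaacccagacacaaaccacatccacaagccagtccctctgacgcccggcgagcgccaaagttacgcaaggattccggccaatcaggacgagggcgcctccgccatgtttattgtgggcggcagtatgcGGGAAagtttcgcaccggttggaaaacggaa
Cenpp, chr13:49652732-49652981, - strand: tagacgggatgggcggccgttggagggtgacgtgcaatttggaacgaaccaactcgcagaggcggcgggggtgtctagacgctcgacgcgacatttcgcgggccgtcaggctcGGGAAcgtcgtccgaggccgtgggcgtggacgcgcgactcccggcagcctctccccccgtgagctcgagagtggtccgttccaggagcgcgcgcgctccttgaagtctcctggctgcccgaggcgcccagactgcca
Cep290, chr10:100487332-100487581, + strand: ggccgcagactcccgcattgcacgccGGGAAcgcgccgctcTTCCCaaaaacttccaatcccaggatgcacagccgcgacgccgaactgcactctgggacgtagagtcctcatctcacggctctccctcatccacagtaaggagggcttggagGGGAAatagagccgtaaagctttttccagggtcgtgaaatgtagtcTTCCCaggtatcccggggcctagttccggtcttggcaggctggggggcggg
Cep44, chr8:56550567-56550816, - strand: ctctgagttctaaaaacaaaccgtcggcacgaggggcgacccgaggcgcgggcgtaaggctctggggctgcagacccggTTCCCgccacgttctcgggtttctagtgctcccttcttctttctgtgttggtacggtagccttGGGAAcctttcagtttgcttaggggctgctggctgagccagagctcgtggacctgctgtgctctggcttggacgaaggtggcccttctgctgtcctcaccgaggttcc
Ift88, chr14:57423821-57424070, + strand: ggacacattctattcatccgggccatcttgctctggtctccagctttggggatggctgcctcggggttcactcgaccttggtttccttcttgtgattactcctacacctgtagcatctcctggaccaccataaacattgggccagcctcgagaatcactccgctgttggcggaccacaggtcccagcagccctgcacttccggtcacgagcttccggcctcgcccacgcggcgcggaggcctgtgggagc

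Cep290 had 4 matches to the core in these bases, Cenpl and Cep44 had 2 each, Cenpp had 1, and Cenpu and Ift88 had 0. All 4 Cep290 matches lay inside the peak of every list. The Cenpp match did so as well. Of the 2 Cenpl matches, the match nearer the start lay inside the peak of every list and the other inside the peak of 1 list. Neither of the 2 Cep44 matches lay inside the peak of every list. In Cenpu, the member with the strongest peak at a start, the bases shared by all 3 peaks ran from -348 to -51 relative to the start, and the single match of its window lay after the start, outside those peaks. A match is a property of the sequence and was not taken as a binding site.

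The 3 peak lists differed in length, with 685, 2084 and 1342 peaks in WT replicates 1, 2 and 3. They named 12, 26 and 21 of the 188 genes that meet the name rule, or 6.38%, 13.8% and 11.2%. Of all protein-coding genes in the RefSeq table, the same lists named 2.70%, 7.77% and 5.51%. Read counts were not among the files, so the depth of the libraries is unknown. Values below are fold enrichments as the authors gave them, a linear ratio over background, and percentiles of fold enrichment within 1 list, where 100 is the strongest peak.

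Of the 28 members, 12 were named in all lists, 7 in exactly 2 and 9 in 1. The 19 members in 2 or more lists made up 67.9% of the 28 (interval 47.6 to 84.1), and 46.9% of all protein-coding genes with a peak were in 2 or more lists (44.7 to 49.1). Against the whole gene table, 19 of the 188 genes (10.1%, interval 6.2 to 15.3) were named in 2 or more lists, and 4.46% of all protein-coding genes were. In all lists these shares were 6.38% of the 188 genes and 2.01% of all protein-coding genes. Genes of the name rule had a median length of 35.0 kb and all protein-coding genes 17.1 kb, and the part of gene length in these shares was not tested. Intervals cover counting error only, and genes are not replicates of the cells.

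Every member named more than once had peaks that overlapped between lists, so each gene corresponded to a single region. All 7 members in exactly 2 lists had their peaks in replicates 2 and 3. Of the 9 members in 1 list, 7 were in replicate 2, which has the longest list, 2 in replicate 3 and 0 in replicate 1. Without replicate 2 or without replicate 3, the members' regions left in 2 lists numbered 12, or 63.2% of the 19 (interval 38.4 to 83.7). Over all regions with a protein-coding gene, the counts without these replicates were 49.3% and 52.4% of the 933 found in 2 or more lists. Without replicate 1 the members' count stayed at 19, and that of all such regions was 88.7% of 933. With only peaks of a −log10 q of 5 or more, 9 of the members' regions were in 2 or more lists, 47.4% of the 19 (interval 24.4 to 71.1), beside 41.5% of the 933. The intervals without replicate 2, without replicate 3 and at this threshold include the shares over all regions.

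**Figure D1:**
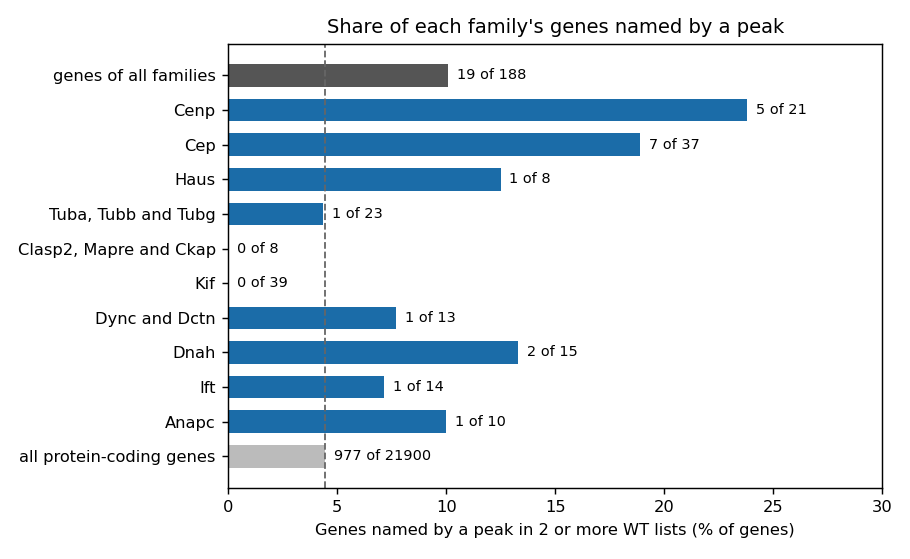
Percent of the genes in each name family that a peak names in 2 or more WT lists (bars, with counts beside them), above all protein-coding genes in grey, whose 4.46% is also the dashed line. Cenp genes reach 5 of 21 and Cep genes 7 of 37, and Kif genes stand at 0 of 39.

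By family, Cenp genes had 5 of 21 named in 2 or more lists (23.8%, interval 8.22 to 47.2) and Cep genes 7 of 37 (18.9%, interval 7.96 to 35.2). Dnah genes had 2 of 15, and Haus, Dync with Dctn, Ift, Anapc and tubulin genes had 1 each, of 8, 13, 14, 10 and 23. Kif genes had 0 of 39 in 2 or more lists, with an upper limit of 9.03%, and the group of Clasp2, Mapre and Ckap genes had 0 of 8. The intervals of the Cenp and Cep shares lie above 4.46%, and those of the other families include it. Differences between families were not tested. A list of 68 other genes of the spindle and centrosome, outside the name rule, had 2 in 2 or more lists (2.94%, interval 0.358 to 10.2).

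**Figure D2:**
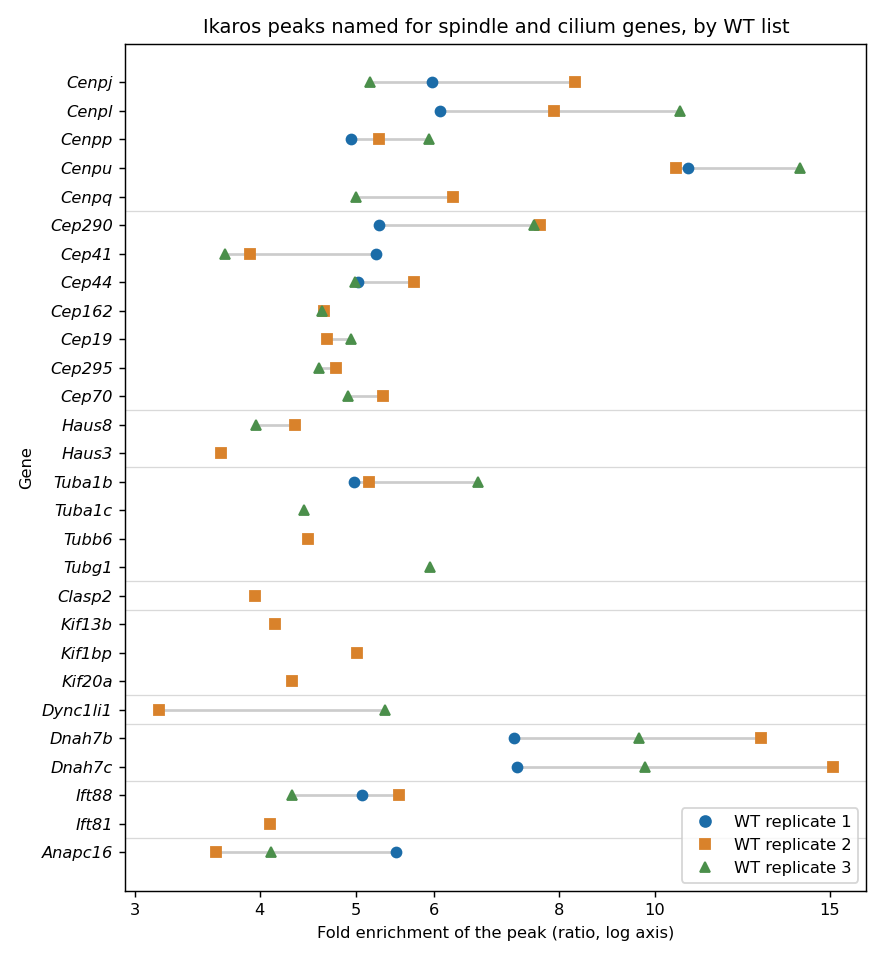
Fold enrichment (ratio, log axis) of the Ikaros peak named for each of 28 members, by WT list, with a grey line over the range of a gene and thin lines between families. Cenpu, Dnah7b and Dnah7c reach the highest values, and Kif genes have values in replicate 2 only.

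Genes with a Cenp symbol included Cenpu, the member with the strongest peak at a gene start in each list. Cenpu, Cenpp and Cenpq encode subunits of the CENP-O complex and Cenpl encodes a partner of CENP-N, all parts of the protein network that sits on centromeres throughout the cell cycle. Cenpu (ENSMUSG00000031629) was enriched 10.8-fold, 10.5-fold and 14.0-fold in replicates 1, 2 and 3, at percentiles 96.1, 96.9 and 97.8. It thus stood among the strongest peaks of each list. Its region, chromosome 8 from 46551710 to 46552041 (mm10), reached the annotated 5′ end of the gene, with its midpoint 0.144 kb upstream of that end.

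Cenpl (ENSMUSG00000026708) was enriched 6.08-fold, 7.92-fold and 10.6-fold in replicates 1, 2 and 3, at percentiles 78.5, 92.4 and 96.4. The lowest of the 3 values was in replicate 1 on both scales. The region, chromosome 1 from 161070503 to 161070941, lay over the start of Cenpl. Cenpp had 4.95, 5.28 and 5.93 in replicates 1, 2 and 3, at percentiles 44.7, 66.5 and 72.7. Its region, chromosome 13 from 49652706 to 49652996, overlapped the promoter windows of Cenpp and Nol8. Cenpq had 6.27 and 5.00 in replicates 2 and 3, at percentiles 83.7 and 50.2. That region, chromosome 17 from 40934395 to 40934701, covered its start and an end of the neighbouring gene for methylmalonyl-CoA mutase.

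Cenpj (ENSMUSG00000064128) carries a centromere protein symbol, but its product is a centriole protein that controls centriole length. Fold enrichments were 5.97, 8.31 and 5.17 in replicates 1, 2 and 3, at percentiles 76.2, 93.4 and 55.2. Replicate 2 had the highest value, and the ratio of the highest to the lowest was 1.61. Of the 5 Cenp regions this was the 1 away from an annotated start. It lay inside the gene, chromosome 14 from 56567543 to 56567916, with its midpoint 4.12 kb downstream of the start in the promoter table.

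Centrosomal Cep genes formed the largest group, with 7 members, of which 3 were in all lists. Cep290 encodes a large protein of the ciliary transition zone. Its fold enrichments were 5.27, 7.66 and 7.55 in replicates 1, 2 and 3, at percentiles 56.1, 91.3 and 90.2. Replicates 2 and 3 placed it among their strongest 10% of peaks and replicate 1 near its middle. The region, chromosome 10 from 100487111 to 100487656, covered the starts of Cep290 and of Tmtc3, and the authors name both genes for it.

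Cep44, which encodes a centriole protein, had 5.03, 5.72 and 4.99 in replicates 1, 2 and 3, at percentiles 47.4, 76.2 and 49.9. Its region on chromosome 8, 56550668 to 56551058, touched the promoter windows of Cep44 and Fbxo8. Cep41, whose product is needed for glutamylation of ciliary tubulin, had 5.24, 3.91 and 3.69 in replicates 1, 2 and 3, at percentiles 54.7, 18.3 and 4.10. The peak was thus in every list but among the weakest of replicate 3. It lay on chromosome 6, 30657273 to 30657535, inside the gene, 36.3 kb downstream of the start in the promoter table.

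The other Cep genes, Cep162, Cep19, Cep295 and Cep70, had peaks in replicates 2 and 3 and were not named in replicate 1. Cep295, which acts in turning centrioles into centrosomes, had 4.78 and 4.59 in replicates 2 and 3, at percentiles 51.9 and 35.3. Cep162, a protein of centrioles and the ciliary transition zone, had 4.64 and 4.62 at percentiles 47.0 and 36.4. Cep70, which helps to organize microtubules with gamma-tubulin, had 5.32 and 4.91 at percentiles 67.5 and 48.0. These 3 regions each covered an annotated start, in Cep70 a start inside the RefSeq gene span and 59.8 kb from its nearer end. Cep19, which acts in the formation of cilia, had 4.68 and 4.94 at percentiles 47.9 and 48.9, and its region lay 0.153 kb beyond the 3′ end of the gene. In each of these genes the higher fold was 1.01 to 1.08 times the lower, so both lists gave nearly equal values.

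Haus genes encode subunits of augmin, the complex that starts new microtubules from the sides of existing ones in the spindle. Haus8 had 4.34 and 3.97 in replicates 2 and 3, at percentiles 35.3 and 12.9, over its promoter window and that of Myo9b (chromosome 8, 71272568 to 71272992). Haus3 had a single peak, in replicate 2, at a fold of 3.66 and percentile 8.40, over its promoter window and that of Poln. Both ranked below the middle of their lists.

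Among the tubulins, the building blocks of microtubules, the alpha-tubulin gene Tuba1b was in all lists. It had 4.98, 5.15 and 6.64 in replicates 1, 2 and 3, at percentiles 45.3, 63.5 and 83.6 (chromosome 15, 98933854 to 98934616). The peaks of replicates 1 and 3 were 699 and 735 bp wide and crossed the start, whereas that of replicate 2 was 263 bp wide and began 274 bp downstream of it. The authors also name other genes for these peaks, so their assignment to Tuba1b is uncertain. Tuba1c, another alpha-tubulin gene, had a peak in replicate 3, with a fold of 4.43 at percentile 29.8. Tubg1, which encodes gamma-tubulin, the protein that nucleates microtubules, had a peak in replicate 3, with 5.94 at percentile 72.8, over an end of the gene and of Retreg3 (chromosome 11, 101119755 to 101120029). Tubb6, a beta-tubulin gene, had 4.48 at percentile 40.6 in replicate 2. Tubulin genes are similar to each other in sequence, and how reads that map to several places were treated is not given in the sources used here.

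Of the 67 Kif, Dync, Dctn and Dnah genes together, 3 were named in 2 or more lists (4.48%, interval 0.933 to 12.5), close to the 4.46% of all protein-coding genes. Of the Kif genes, which encode kinesins or proteins named after them, 3 were named, all in replicate 2 alone. That is 7.69% of the 39 Kif genes, beside 7.77% of all protein-coding genes in that list. Kif20a, a kinesin of cytokinesis, had a fold of 4.31 at percentile 33.7, and Kif13b, a cargo-carrying kinesin, had 4.15 at percentile 27.2. The third, Kif1bp, is no motor but binds kinesins and inhibits them, and it had 5.01 at percentile 58.9. The authors place that peak inside Kif1bp, whereas in the RefSeq table, which calls the gene Kifbp, it lay 14.7 kb outside (chromosome 10, 62543539 to 62543775). Dync1li1, a light intermediate chain of cytoplasmic dynein, had peaks over its start in replicates 2 and 3 (chromosome 9, 114688620 to 114688873). Their folds of 3.17 and 5.35 stood at percentiles 1.34 and 60.1, so the rank of this site differed widely between the lists. Clasp2, which stabilizes microtubule plus ends, had 3.96 at percentile 20.0 in replicate 2, and no Mapre or Ckap gene was named.

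Dnah7b and Dnah7c, neighbouring paralogs that encode axonemal dynein heavy chains of motile cilia, held the strongest peaks of any members in replicate 2. Dnah7c had 7.27, 15.1 and 9.77 in replicates 1, 2 and 3, at percentiles 89.6, 98.3 and 95.2. Dnah7b had 7.22, 12.8 and 9.64, at percentiles 89.3, 97.8 and 95. In both genes the highest value was in replicate 2 and the lowest in replicate 1, and the values of the paralogs were close to each other within a list. The regions lay deep inside the genes, 80.2 kb from the nearer end in Dnah7b (chromosome 1, 46293047 to 46293707) and 112 kb in Dnah7c (chromosome 1, 46695034 to 46696205). Because the genes are copies of each other, reads could be shared between them, and the assignment of the peaks to either copy is uncertain.

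The intraflagellar transport genes Ift88 and Ift81 encode subunits of the complex that carries cargo to the ciliary tip. Ift88 had 5.07, 5.53 and 4.31 in replicates 1, 2 and 3, at percentiles 49.2, 72.4 and 25.5, over its start (chromosome 14, 57423910 to 57424178). Ift81 had a peak in replicate 2 with 4.10 at percentile 25.4, inside the gene and 35.5 kb from its nearer end. Anapc16, a subunit gene of the anaphase-promoting complex, the ubiquitin ligase that triggers chromosome separation, had 5.49, 3.62 and 4.11 in replicates 1, 2 and 3. Percentiles were 63.6, 7.15 and 19.1, with replicate 1 the highest. That region was 12.5 kb from the gene (chromosome 10, 59974129 to 59974865), which makes it the most distant of the members in all lists.

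**Figure D3:**
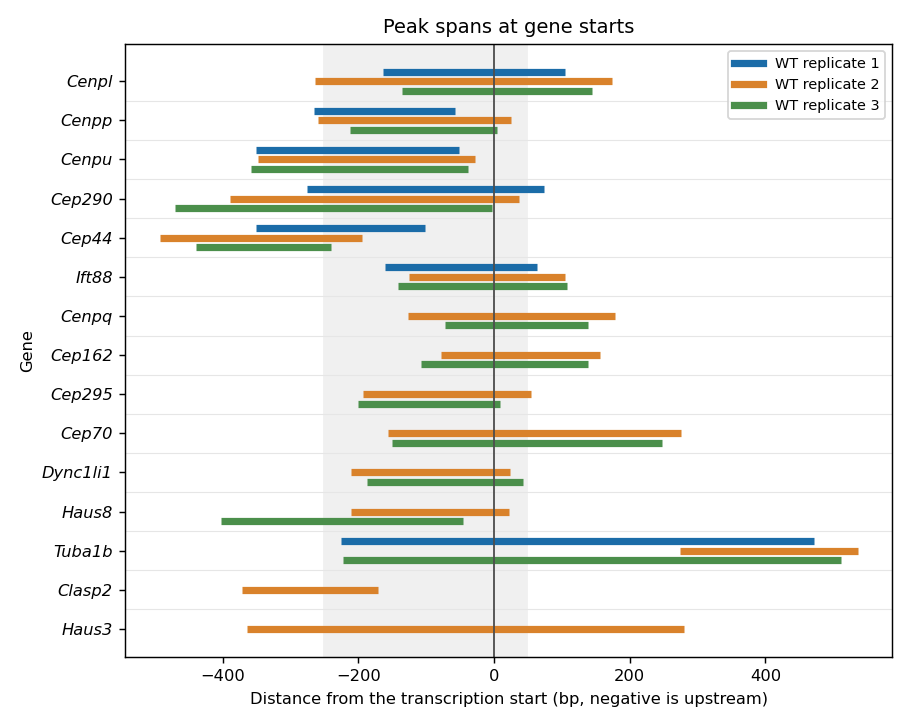
Spans of the peaks of 15 members whose promoter window lies under a peak, as distance from the transcription start in bp (negative is upstream, along the gene's strand), by WT list, with the promoter window shaded. Most spans cross or end near the start, and the replicate 2 peak of Tuba1b lies downstream. Every span of Cenpu, Cep44 and Clasp2 lies upstream, as do those of Cenpp in replicate 1 and of Cep290 and Haus8 in replicate 3.

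The shared regions lay mostly at gene starts, as did those of all protein-coding genes, and several covered more than 1 gene. Of the 19 regions in 2 or more lists, 13 were centred less than 1 kb from either end of a gene (68.4%, interval 43.4 to 87.4), and 57.9% of the 933 regions with any protein-coding gene did (54.6 to 61.1). Within 1 kb of an annotated start the shares were 68.4% of members (interval 43.4 to 87.4) and 53.4% of all such regions. Both member intervals include the share over all regions. Among regions in all lists, 58.3% of members' regions and 57.9% of all regions were near a gene end. Of those 19 regions, 6 had ends of 2 or more protein-coding genes within 1 kb (31.6%, interval 12.6 to 56.6), and 11.4% of all 933 regions did (9.40 to 13.6). Among these were the regions of Cenpp, Cenpq, Cep290, Cep44 and Haus8, with Nol8, the methylmalonyl-CoA mutase gene, Tmtc3, Fbxo8 and Myo9b on the other side. At all 6 sites the peak cannot be assigned to the spindle gene rather than to its neighbour. The same holds for Haus3, Kif20a and Tubg1 among the members in 1 list, beside Poln, Brd8 and Retreg3.

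RefSeq promoter windows, from 250 bases before to 50 after a start, were found for 23 of the 28 members, 25 windows in all. Ift81, Kif13b, Kif20a, Tubb6 and Tubg1 were without an entry. Of these windows 15 lay under a peak, 13 of them in 2 or more lists. GGGAA, on either strand, was in 21 of the 25 member windows (84.0%, interval 63.9 to 95.5), in 63.0% of all 21263 windows of protein-coding genes, and in 68.9% of the 530 windows under a peak in 2 or more lists. The longer TGGGAA was in 9 of the 25 (36.0%, interval 18.0 to 57.5), in 23.0% of windows under a peak in 2 or more lists and in 24.5% of all windows. CCGGAAG, an ETS site looked for after the values had been seen, was in 7 of the 25 (28.0%, interval 12.1 to 49.4), in 22.8% of windows under a peak in 2 or more lists and in 11.6% of all windows. The median GC content was 61.7% in member windows, 66.0% in windows under a peak in 2 or more lists and 56.3% in all windows. The 3 motif shares were thus higher in the 25 member windows, some of them under no peak, than in windows under such peaks. The latter had the higher median GC content, and the intervals of all 3 member shares include their shares. In the 13 member windows under a peak in 2 or more lists, GGGAA was in 84.6% (interval 54.6 to 98.1) and TGGGAA in 46.2% (19.2 to 74.9). CCGGAAG was in 30.8% of them (9.09 to 61.4). These intervals also include the shares of all windows under such peaks.

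**Figure D4:**
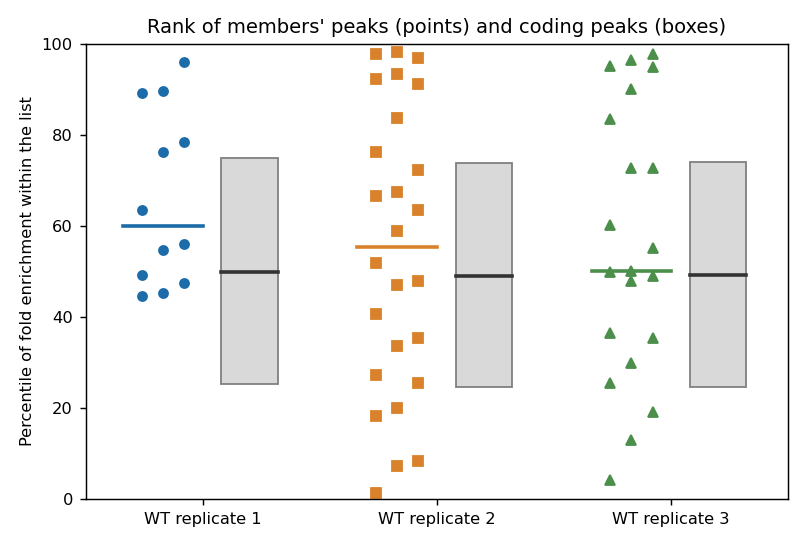
Percentile of fold enrichment within each WT list for the members' peaks (points, with a coloured line at their median), beside a grey box from the lower to the upper quartile of all peaks named for protein-coding genes, with a black line at their median. The members spread over nearly the whole range in replicates 2 and 3. Their median lies close to that of all coding peaks in replicate 3 and above it in replicates 1 and 2.

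As a group the members' peaks ranked near the middle of the list in replicate 3 and somewhat above it in replicates 1 and 2. Their median percentiles were 59.9, 55.4 and 50.2 in replicates 1, 2 and 3, and those of all peaks named for protein-coding genes were 49.9, 49.1 and 49.3. Median fold enrichments of members were 5.38, 4.90 and 5.00, beside 5.10, 4.72 and 4.95 for all coding peaks. Of the members' peaks, 1 of 12, 6 of 26 and 5 of 21 were among the strongest 10% of the lists (8.33%, 23.1% and 23.8%), and of all coding peaks 10.3%, 9.54% and 9.50% were. They belonged to Cenpu in each list, Cenpl, Dnah7b, Dnah7c and Cep290 in replicates 2 and 3, and Cenpj in replicate 2. Members in all lists had a median percentile of 83.8 in replicate 2, those in 2 lists had 47.9 there and those in 1 list 27.2. In replicate 3 these medians were 78.1, 48.0 and, for the 2 members in that list alone, 51.3, so the order of the last groups was not the same. The 12 members in all lists nevertheless spanned percentiles 7.15 to 98.3 in replicate 2 and 4.10 to 97.8 in replicate 3. Medians by number of lists are not given here for all coding peaks. Whether the order is particular to the members was therefore not tested.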

How the data were processed

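ChIP-seq for Ikaros was examined in 3 WT libraries, 1 peak list each; KO libraries were not analysed here. The submitters' processing notes name build mm10 and the tools MACS2, edgeR 3.20.0, Subread, SAMtools and Picard, without saying what each did. Input was set aside per the labels' protocols, but whether it served as control, the q threshold and the gene annotation are not given in the sources used here. Per the file headers, each peak has a fold enrichment (a linear ratio), −log10 p-values and −log10 q-values, and the genes named for it with a distance, all made by the authors. Peaks were called on each library alone, per the peak names in the deposited lists.

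Several rows of 1 peak were reduced to 1. Peaks of different lists with 1 or more bases in common became 1 region. Gene ends and promoters came from RefSeq tables of the same build (GRCm38.p6); of 2145 protein-coding names, 2084 matched (97.2%). Percentiles are ranks within 1 list. The lists hold no counts, so depth is unknown and no statistical test was made; Clopper-Pearson intervals at 95% cover counting error over genes, regions or windows. Merging and motif search were tested on simulated data. The rule for named genes was to name every member, with values for those in 2 or more lists and for the strongest of the rest in each family; values of the remaining members were added. A gene that meets the name pattern is not reported here. The members, the families and the list of 68 other spindle genes were chosen with earlier results of these data known. Alternatives changed the overlap, the q minimum, the distance, the lists used, the measure of strength, the gene assignment and the motif. Software was matplotlib 3.10.9, pandas 2.3.3, SciPy 1.17.1 and NumPy 2.4.6 under Python 3.11.15.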

Additional observations from a re-analysis of the deposited data

How the results depend on the processing

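No paired analysis was possible because every value comes from WT libraries, KO libraries being not analysed here. Peak thresholds decided how many of the members' regions were shared. With a −log10 q of 5 or more, 9 regions were in 2 or more lists and 4 in all lists, and with 10 or more these were 5 and 1. Fewer peaks enter by construction. At 5 or more, 47.4% of the members' regions in 2 or more lists and 33.3% of those in all lists remained, beside 41.5% and 40.4% over all regions with a protein-coding gene. At 10 or more, these were 26.3% and 8.33% of the members' regions, beside 13.5% and 14.4%. Leaving out each replicate in turn gave 12 to 19 regions found in 2 lists. An overlap of 50% of the shorter peak left both counts at 19 and 12. Gene assignment by the RefSeq table gave 20 genes, the same 19 and Cep95, whose region the authors name for Ddx5. The share of regions near a gene end ranged from 58.3% to 73.7% over the other distances, thresholds, lists left out and starts in place of ends, the last chosen after seeing the data. Ranked by −log10 p, the members' median percentiles were 58.4, 60.1 and 55.3 in replicates 1, 2 and 3, and with regions in 2 or more lists 59.9, 67.5 and 50.2. With TGGGAA in place of GGGAA, 36.0% of member windows held the motif. Depth is unknown, so absence from a list does not show that a site was unbound.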

Other observations

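Among 68 other genes of the spindle and centrosome, 3 were named by a peak in any list (4.41%, interval 0.919 to 12.4). Of all protein-coding genes 9.51% were, a share inside that interval. Clasp1, the paralog of Clasp2 and likewise a stabilizer of microtubule plus ends, was enriched 17.9-fold, 39.5-fold and 29.4-fold in replicates 1, 2 and 3, at percentiles 98.5, 99.6 and 99.3, in a region inside the gene (chromosome 1, 118426156 to 118426920). The value of Clasp2, 3.96 in replicate 2, was far below these. Cdk5rap2, which anchors gamma-tubulin at the centrosome, had 5.31, 3.61 and 5.33 in replicates 1, 2 and 3, at percentiles 57.7, 6.91 and 59.8. Aurkb, a mitotic kinase, had a peak in replicate 3 with 4.51 at percentile 32.6.

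Cep95, a centrosomal gene that the authors' gene column does not name, overlapped a region in all lists on chromosome 11, 106788267 to 106789095, which the authors name for Ddx5.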
